A study of Mus musculus with 2 samples.

Results

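Basal keratinocytes of the epidermis between hair follicles were taken from a pooled single-cell library of mouse skin as 712 of 8367 cell barcodes, or 8.51% (7.92 to 9.13). They made up 59.5% (56.6 to 62.3) of the 1197 barcodes read as epithelial. A member had at least 200 genes, at most 20% mitochondrial counts, at most 3 counts of Dcn, a fibroblast gene, and 0 counts of Ptprc, a leukocyte gene. Its keratins Krt5, Krt14, Krt1 and Krt10 summed to at least 20 counts per 10000 (CP10K). Krt79, of the upper hair follicle, was under 5 CP10K, and Postn, Lhx2 and Sox9, of the lower follicle, were together under 3 CP10K. Krt5 and Krt14, the keratin pair of the basal layer, had at least as many counts as Krt1, Krt10 and Krtdap, which mark the layers above. Members were thus selected on the measured levels of these genes, and those levels are a description.

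Skin came from C57BL/6 mice of 8 weeks, and was digested with Liberase and DNase before the transcriptome was read by droplet sequencing. Some mice were controls, and in others neutrophils had been depleted at steady state with the anti-Ly6G antibody 1A8 over 2 consecutive days. Cells of both groups were tagged with hashtag antibodies and mixed into 1 RNA library, and the number of animals is not given in the labels. The matrix holds no hashtag counts, so every value below describes the mixture and control and depleted skin were not compared.

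The basal layer is the innermost sheet of the epidermis. Its cells divide, and hold to the basement membrane through hemidesmosomes, junctions that tie laminin outside the cell to keratin filaments inside. Cells that leave the layer stop dividing, change keratins Krt5 and Krt14 for Krt1 and Krt10, strengthen desmosomes and begin to build the cornified envelope and the lipid barrier. The transcription factor p63, from Trp63, is needed for a stratified epidermis, and Notch, Wnt, EGF and BMP signals act on the balance of growth and differentiation.

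The members were set against the other 485 epithelial barcodes. These were 317 suprabasal barcodes, with more differentiation than basal keratin counts, 163 lower follicle barcodes and 5 others with Krt79. Levels are unique molecular identifiers (UMIs) of a gene, summed over a group and scaled by the UMI total of that group to CPM, the usual unit of relative abundance. All intervals are at 95%: Poisson and exact for levels, conditional and exact for ratios, and Clopper-Pearson where a share is given. Only counting error is covered, not the spread between barcodes or mice, and with 1 library no difference has a replicate check. Members held 7924878 UMIs. Their median barcode had 10912 UMIs and 3122 genes. The median was 12221 UMIs in suprabasal and 6752 in lower follicle barcodes. Mitochondrial genes took 2.28% of the members' UMIs, against 2.14% in suprabasal and 3.01% in lower follicle barcodes.

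Of the 5 markers of basal keratinocytes (Krt5, Krt14, Col17a1, Itga6 and Trp63), at least 3 were detected in 708 of the 712 members, or 99.4%. Krt5 and Krt14 are genes of the choice, so this share is in part set by it. The 3 markers that the choice did not use were also set against 3748 fibroblast barcodes, those with 10 or more Dcn UMIs, where free RNA gives a background. Col17a1 stood at 1032 (1009.7 to 1055) CPM in members and 16.7 CPM in fibroblast barcodes. Itga6 stood at 805 (785 to 825) against 11.3 CPM, and Trp63 at 606 (589 to 624) against 10.6 CPM. All 3 genes were thus far above this background.

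Markers of other cells were low but not absent. Dcn, Ptprc, Krt79, Postn, Lhx2 and Sox9 are among these markers, and the choice limited them. The low values of fibroblast, leukocyte and follicle markers are thus in part set by the choice. At least 3 suprabasal markers were seen in 215 members (30.2%), which the choice permits as long as basal keratins prevail. At least 3 fibroblast markers were seen in 22 members, and their summed level was 73.9 CPM against 23288 CPM in fibroblast barcodes. At least 3 Langerhans cell markers were seen in 17 members, muscle markers in 20, leukocyte markers in 7, upper follicle markers in 7 and lower follicle markers in 3. None of the members had 3 markers of inner root sheath, sebocytes, Merkel cells, melanocytes or endothelium. The Merkel cell genes Krt18, Krt20, Atoh1 and Isl1 and the endothelial genes Cdh5, Kdr and Emcn had 0 UMIs in all members.

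The keratin balance that separates members from suprabasal barcodes is a range and not a gap. Krt14 stood at 6924 CPM in members and 187 CPM in suprabasal barcodes, and Krt5 at 5165 against 1746 CPM. Krt10 stood at 371 against 8375 CPM. No UMI of Krt1, Krt10 or Krtdap was found in 286 members (40.2%), while 31 members had less than 2 times as many basal as differentiation keratin UMIs. On the far side, 44 suprabasal barcodes had less than 2 times as many differentiation as basal keratin UMIs. At the keratin floor, the lowest member had 20.5 CP10K, the highest barcode left out had 19.2 CP10K, and the median member had 117 CP10K. Of the members, 18 lay between 2 and 3 CP10K for the lower follicle genes, just under that limit.

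**Figure D1:**
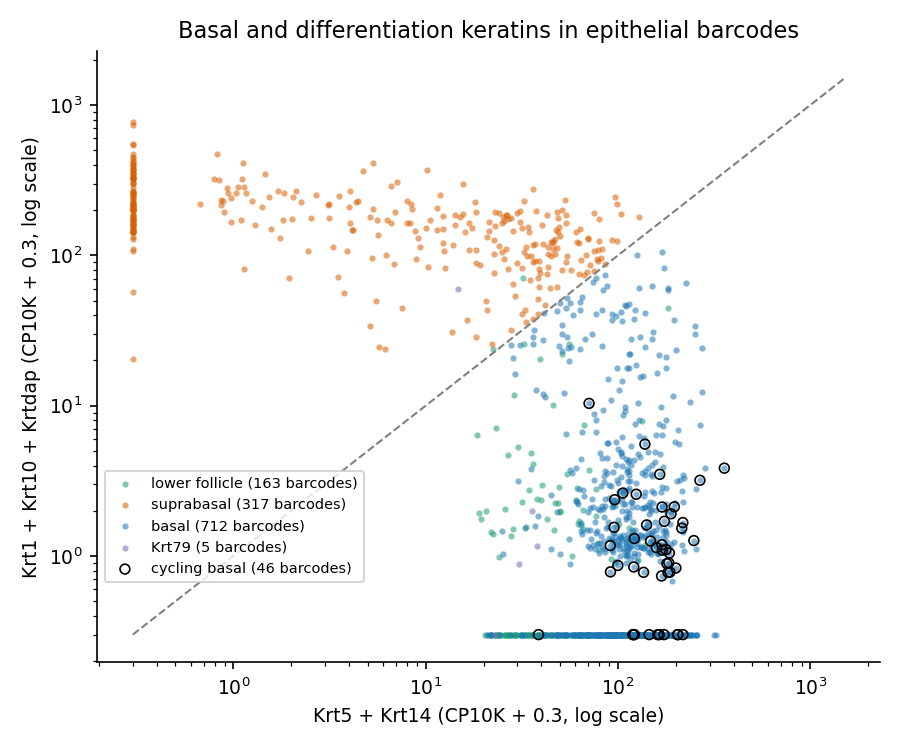
Each point is 1 of the 1197 epithelial barcodes, placed by Krt5 + Krt14 (x axis) and Krt1 + Krt10 + Krtdap (y axis), both in CP10K + 0.3 on log scales, with the dashed line at equality and the 46 cycling members circled. The members lie below the line, most of them at or near the bottom, and a thin band of barcodes crosses the line into the suprabasal group.

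The promoters of 4 genes that mark this balance are shown, as they are the start sites of the genes whose levels separate the layers below. Krt5 is the basal keratin, Krt10 a suprabasal keratin, Col17a1 the collagen of hemidesmosomes and Lgr6 a receptor gene that was low well before the keratins crossed. Each is the 250 bases before the gene's start in RefSeq on GRCm38.p6 (mm10), all on the minus strand, 5′ to 3′. Capitals mark motifs found by search on both strands.
Krt5, chr15:101712906-101713155: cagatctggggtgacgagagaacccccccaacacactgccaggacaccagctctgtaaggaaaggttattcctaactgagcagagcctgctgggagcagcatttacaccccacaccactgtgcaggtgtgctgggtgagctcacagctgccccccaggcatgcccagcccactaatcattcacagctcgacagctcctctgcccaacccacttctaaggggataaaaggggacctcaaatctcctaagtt
Krt10, chr11:99389365-99389614: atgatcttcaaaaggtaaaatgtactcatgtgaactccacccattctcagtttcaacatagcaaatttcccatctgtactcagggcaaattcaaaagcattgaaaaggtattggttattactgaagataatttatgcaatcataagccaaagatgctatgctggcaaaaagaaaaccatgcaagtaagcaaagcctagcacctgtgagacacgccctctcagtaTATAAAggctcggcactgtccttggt
Col17a1, chr19:47692043-47692292: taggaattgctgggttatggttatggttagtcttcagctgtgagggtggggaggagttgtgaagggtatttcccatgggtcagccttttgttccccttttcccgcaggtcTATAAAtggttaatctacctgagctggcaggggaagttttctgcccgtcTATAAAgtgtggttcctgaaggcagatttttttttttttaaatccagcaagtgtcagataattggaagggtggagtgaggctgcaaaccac
Lgr6, chr1:135105277-135105526: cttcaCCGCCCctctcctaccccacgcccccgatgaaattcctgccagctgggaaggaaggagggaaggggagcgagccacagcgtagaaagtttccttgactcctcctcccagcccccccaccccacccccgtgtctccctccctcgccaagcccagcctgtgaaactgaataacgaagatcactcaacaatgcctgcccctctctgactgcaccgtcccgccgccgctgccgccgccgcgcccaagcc

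The motifs searched were the TATA box TATAAA, the AP-1 site TGANTCA, the AP-2 site GCCNNNGGC and the Sp site GGGCGG. Krt10 held TATAAA at 26 bases before the start, and Col17a1 held it at 140 and 91 bases before the start. GENCODE places the start of Col17a1 at 47692094, inside the window shown, so its 2 distances hold for the RefSeq start only. Lgr6 held 1 Sp site, at 245 bases before the start and on the other strand, and Krt5 held none of the 4 motifs. Among 27025 RefSeq windows of this length, 13.0% held TATAAA, 6.87% the AP-1 site, 13.6% the AP-2 site and 32.9% the Sp site. A match is a run of letters and not a bound site, and no binding was measured.

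Across all genes with at least 50 UMIs over the groups compared, and leaving out the genes of the choice, differences were about even in direction. Of 10180 genes, 566 (5.56%) were at least 2-fold higher in members than in the other epithelial barcodes and 545 (5.35%) at least 2-fold lower. Against suprabasal barcodes alone, 1114 of 9829 genes (11.3%) were higher and 391 (3.98%) lower. Against lower follicle barcodes, 671 of 9594 (6.99%) were higher and 930 (9.69%) lower. The median gene had a log2 ratio of 0.01, 0.10 and -0.06 in these comparisons. Both suprabasal and follicle barcodes were exceeded 2-fold by 248 of 9440 genes, which is 22.4% of the genes higher than in suprabasal barcodes and 37.0% of those higher than in follicle barcodes.

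Hemidesmosome genes were the first group examined, and all 6 were counted. Itga6 and Itgb4, which form the integrin that binds laminin, were at least 2-fold higher in members than in other epithelial barcodes, and 0 of the 6 were lower. Itgb4 stood at 188 (179 to 198) CPM, 2.93-fold (2.59 to 3.31) the level in other epithelial barcodes. It was 5.89-fold (4.88 to 7.16) above suprabasal but only 1.14-fold (0.983 to 1.33) above follicle barcodes. Itga6 was above both, by 3.14-fold (2.93 to 3.37) and 2.36-fold (2.13 to 2.61). Col17a1, the transmembrane collagen of the junction, was 2.04-fold (1.94 to 2.14) above suprabasal barcodes, while follicle barcodes held more, at 1219.7 CPM. Dst, which encodes a linker to keratin filaments, stood at 569, 312 and 849 CPM in basal, suprabasal and follicle barcodes. For the linker Plec the levels were 210.3, 109 and 183 CPM, and for the tetraspanin Cd151 they were 71.5, 51.9 and 83.7 CPM. The median log2 ratio of the 6 genes was 0.99 against suprabasal and -0.02 against follicle barcodes. The list therefore stood above suprabasal barcodes and level with the follicle.

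Among other integrins and adhesion genes, 4 of 13 counted (of 14) were higher in members and 2 lower. Itga3, the alpha chain of a laminin receptor outside hemidesmosomes, stood at 128 (120.3 to 136) CPM and only 3.49 CPM in suprabasal barcodes, a ratio of 36.7-fold (21.3 to 69.1). Its partner Itgb1 was 7.86-fold (6.496 to 9.60) above suprabasal barcodes, and again near the follicle level of 220.2 CPM. Itgb6, a chain of an integrin that activates TGF-beta, stood at 40.4, 5.64 and 39.3 CPM in the same order. Members and follicle thus shared levels for Itgb1 and Itgb6, with suprabasal barcodes lower.

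Basement membrane genes stood well above suprabasal barcodes. Of 13 counted there, 12 were at least 2-fold higher in members and 0 lower, with a median log2 ratio of 2.20. Against all other epithelial barcodes, 5 of 15 counted (of 18) were higher and 1 lower, and against follicle barcodes 0 of 15 were higher and 6 lower. The count against all other epithelial barcodes was 10 higher and 0 lower of 13 with a keratin floor of 50 CP10K, and 2 higher and 2 lower of 15 when every barcode weighed the same. Lamb3 and Lama3 encode chains of the laminin that the hemidesmosome integrin binds. Lamb3 stood at 161 (152 to 170.0) CPM, 13.4 CPM in suprabasal and 205 CPM in follicle barcodes. Lama3 stood at 171, 51.9 and 105 CPM in the same order. Both chains were thus several-fold lower in suprabasal barcodes. Col7a1, the collagen of anchoring fibrils, stood at 51.4, 13.2 and 54.4 CPM. By contrast the collagen IV genes were low in members, with Col4a1 at 12.4 CPM against 404 CPM in fibroblast barcodes, and Nid1 stood at 3.28 against 1016 CPM. Fras1, of the complex that joins epidermis and dermis, had 6 UMIs in all members and 69 in follicle barcodes, where it was at 57.8 CPM.

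**Figure D2:**
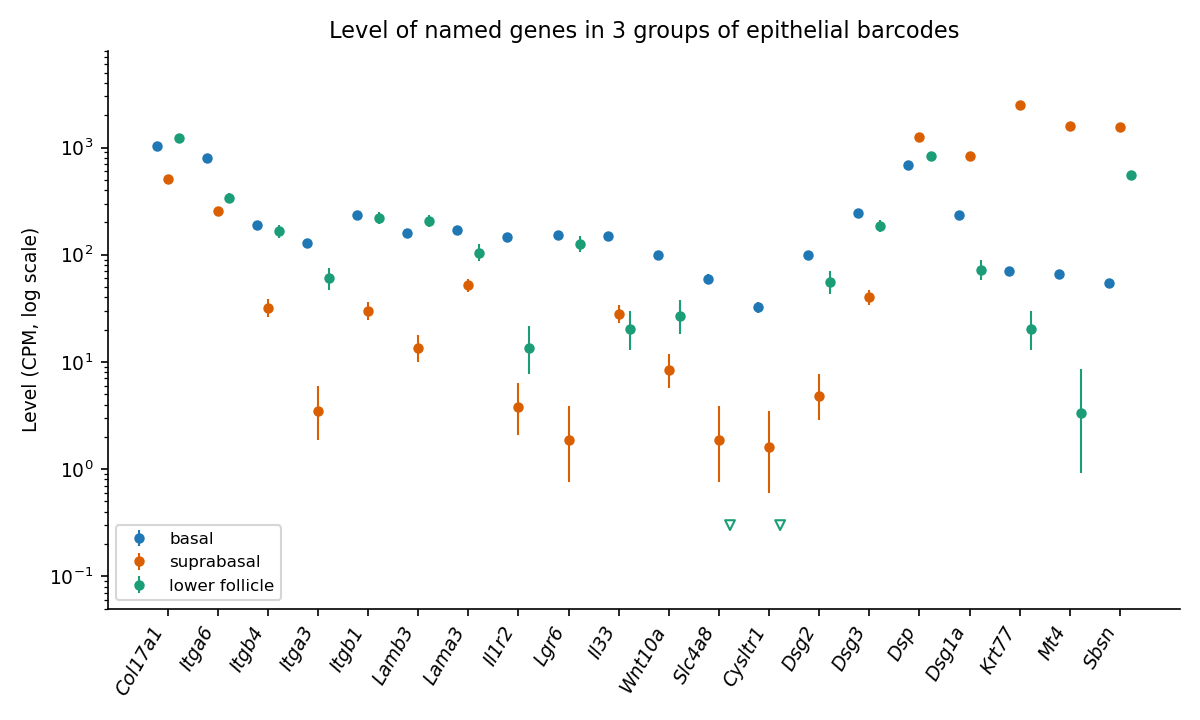
Level of 20 genes (CPM, log axis) in 712 basal, 317 suprabasal and 163 lower follicle barcodes, with 95% Poisson intervals and open triangles, drawn at 0.3, for genes with 0 UMIs. Adhesion genes from Col17a1 to Lama3 have their lowest level in suprabasal barcodes, and Krt77, Mt4 and Sbsn their highest.

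Of 12 counted desmosome genes (of 15), 2 were higher in members and 3 lower, and against suprabasal barcodes 2 were higher and 6 lower. The 2 higher genes were the cadherins Dsg2 and Dsg3. Dsg2 stood at 99.7 (92.9 to 107) CPM, 20.6-fold (13.0 to 34.9) above suprabasal barcodes, and Dsg3 at 246 (235 to 257) CPM, 6.09-fold (5.16 to 7.24) above. Dsg1a, the cadherin of upper layers, was 3.56-fold (3.36 to 3.78) lower than in suprabasal barcodes, though its reads can be shared with its close copies. Dsp, which anchors keratin to the desmosome, stood at 682 CPM in members and 1266 CPM in suprabasal barcodes, less than 2-fold apart. Perp, Dsc3 and Jup were lower, by 2.21-fold, 2.03-fold and 2.08-fold. Only 1 desmosome gene was higher and 0 lower against follicle barcodes.

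Of the adherens, tight and gap junction genes, 2 of 16 counted (of 19) were higher in members and 5 lower. Cdh3, P-cadherin, was 8.27-fold (6.53 to 10.6) above suprabasal barcodes at 162 CPM, and near the follicle level of 139.8 CPM. Cdh1, E-cadherin, differed little from suprabasal barcodes, at 586 against 501 CPM. The tight junction gene Cldn1 stood at 117 and 155 CPM, while Cldn4 was at 5.55 and 31.7 CPM.

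Keratins outside the choice differed gene by gene. Of 8 counted, 0 were higher and 5 lower in members than in other epithelial barcodes. Against suprabasal barcodes alone 1 of 7 was higher and 3 lower, with a median log2 ratio of -0.091. Krt77 was 35.5-fold (32.6 to 38.7) lower than in suprabasal barcodes. Krt78 had 0 UMIs in members and 246 in suprabasal barcodes, so it was at least 175-fold lower, taking 3 UMIs as the floor for the members. Krt15, often used as a stem cell keratin of the follicle, was abundant in all 3 groups, at 7476, 6171 and 5762 CPM. Krt17 stood at 144 CPM in members and 1385 CPM in the follicle, and 39.8% of its UMIs in members came from 10 barcodes. Reads of type I keratins can be shared among near copies, so the levels of Krt14, Krt15, Krt16 and Krt17 are uncertain to that extent.

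The genes of the barrier were low. Of 16 cornified envelope genes counted (of 27), 12 were lower in members and 1 higher than in other epithelial barcodes, with a median log2 ratio of -3.14. The higher gene was the protease Klk10, with a log2 ratio of 1.53. Sbsn, the suprabasin gene, was 28.9-fold (26.2 to 31.9) lower than in suprabasal barcodes and Dmkn, dermokine, 3.81-fold (3.70 to 3.91) lower. Dmkn still reached 974 CPM in members. Of 13 barrier lipid genes counted (of 18), 6 were lower and 0 higher. Abca12, the lipid transporter of lamellar granules, stood at 32.7 CPM in members and 229 CPM in suprabasal barcodes, and Elovl4, which lengthens very long fatty acids, at 9.84 and 249.98 CPM. Among retinoid and fatty acid carriers, 4 of 9 counted (of 11) were lower and 0 higher. Fabp5, the epidermal fatty acid carrier, was 21.9-fold (18.8 to 25.6) lower than in suprabasal barcodes, and Crabp2 had 4 UMIs in all members. Against follicle barcodes, the barrier lipid genes went the other way, with 3 of 12 higher and 0 lower.

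Of 26 counted epidermal transcription factors (of 28), 0 were 2-fold higher in members and 10 lower. Trp63 was 1.53-fold (1.44 to 1.62) above suprabasal barcodes and level with the follicle, at 596 CPM. Zfp750, Grhl3 and Ovol1, which act in terminal differentiation, were lower than in suprabasal barcodes by 8.41-fold (7.09 to 10.01), 8.59-fold (5.72 to 13.3) and 3.93-fold (3.46 to 4.47). Gata3 and Klf4 were detected at 424 and 493 CPM, against 567 and 580.1 CPM in suprabasal barcodes. Id1, an inhibitor of helix-loop-helix factors, stood at 90.0 CPM in members, 345 CPM in suprabasal and 543 CPM in follicle barcodes. Against suprabasal barcodes 8 of the 26 were lower and 0 higher, with a median log2 ratio of -0.23.

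Of the genes used to mark stem cells or regions of skin, 7 of 9 counted were higher in members than in suprabasal barcodes and 0 lower. Against all other epithelial barcodes, 2 of 12 counted (of 13), Ly6a and Lgr6, were higher and 5 lower. Lgr6, a receptor for R-spondins, stood at 153 (145 to 162) CPM in members and had 7 UMIs in suprabasal barcodes, at 1.88 (0.756 to 3.88) CPM. It was close to the follicle level of 126 (107 to 148) CPM. Lgr5, its relative in the lower follicle, stood at 8.08 CPM against 236 CPM in the follicle, and all of its UMIs in members came from 10 barcodes. Ly6a, the surface antigen Sca-1, was 5.46-fold (4.46 to 6.76) above follicle barcodes at 439 CPM, but fibroblast barcodes held 3308 CPM. The part of free RNA in the level of Ly6a was not tested.

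Among growth factor genes, 4 of 15 counted EGF and FGF genes (of 17) were higher in members and 2 lower. Epgn, a ligand of the EGF receptor, was 8.31-fold (6.52 to 10.8) above suprabasal barcodes at 154 CPM, with 31.2% of its UMIs in 10 barcodes. Fgfr2, the receptor for dermal FGFs, was 3.09-fold (2.82 to 3.39) above suprabasal barcodes at 453 CPM. The receptor gene Egfr stood at 228, 171 and 368 CPM in basal, suprabasal and follicle barcodes. Areg, another ligand of that receptor, had 25 UMIs in members and 25.0 CPM in suprabasal barcodes.

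Of 13 counted Notch pathway genes (of 14), 2 were higher in members and 4 lower than in other epithelial barcodes, and against suprabasal barcodes 4 were higher and 4 lower. The 2 higher genes were the ligands Jag2 and Dll1. Jag2 stood at 115 (108 to 123) CPM in members, 5.11 (3.07 to 7.98) CPM in suprabasal and 118 (99.4 to 139) CPM in follicle barcodes. Dll1 stood at 18.8, 4.30 and 10.9 CPM. The receptor Notch3 and the target Hes1 had the opposite order, at 6.94 and 117 CPM in members and 79.3 and 432 CPM in suprabasal barcodes. Notch1, the main epidermal receptor, stood at 127 and 164 CPM, less than 2-fold apart.

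Of 22 Wnt pathway genes, 6 were higher and 6 lower in members than in other epithelial barcodes, and 6 and 3 of 21 with a keratin floor of 50 CP10K. Against suprabasal barcodes 10 of 20 were higher and 0 lower, and against the follicle 5 of 22 were higher and 10 lower. The ligands Wnt10a and Wnt6 exceeded both groups. Wnt10a stood at 99.2 (92.4 to 106) CPM, 11.9-fold (8.32 to 17.6) above suprabasal and 3.70-fold (2.60 to 5.45) above follicle barcodes. Wnt6 stood at 32.1, 1.34 and 8.37 CPM in that order. Wnt4 was the more even, at 182, 105 and 93.8 CPM, and Wls, the carrier that exports Wnt proteins, was 3.90-fold (3.41 to 4.48) above suprabasal barcodes. Among inhibitors and receptors of the follicle, Dkk3 stood at 7.57 against 143 CPM in the follicle and Fzd7 at 2.90 against 97.1 CPM.

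In the TGF-beta and BMP pathway, 4 of 17 counted (of 20) were higher in members and 2 lower, and against suprabasal barcodes 8 of 17 were higher. When every barcode weighed the same, 3 were higher and 5 lower than in other epithelial barcodes. Bmp4 stood at 53.2 (48.3 to 58.6) CPM in members, 22.8 CPM in suprabasal barcodes and 1.67 (0.203 to 6.05) CPM in the follicle. Fst, follistatin, an inhibitor of activins, was at 35.0 CPM in members and 487 CPM in the follicle, and 69.3% of its UMIs in members came from 10 barcodes.

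Among cytokine genes, 2 of 14 counted (of 24) were higher in members and 2 lower than in other epithelial barcodes. Il33, an alarmin, stood at 149.8 (141 to 159) CPM, 5.36-fold (4.38 to 6.61) above suprabasal and 7.45-fold (4.99 to 11.7) above follicle barcodes. Ccl20 was the other, with 75 UMIs, all of them from 10 members. Ccl27a, a chemokine that draws T cells to skin, was abundant at 1496 CPM and 2.09-fold (2.00 to 2.18) above suprabasal barcodes. Cxcl14, another chemokine of resting epithelium, stood at 1104, 266 and 1775 CPM in basal, suprabasal and follicle barcodes. Of the antimicrobial genes only 2 of 10 were counted, and both were lower in members.

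MHC and interferon genes differed little from the other epithelial barcodes together, but more from follicle barcodes alone. Of 16 counted (of 21), 1 was higher in members and 0 lower, with a median log2 ratio of 0.37. That gene was Ifitm3, an interferon-induced membrane protein, at 637, 80.6 and 364 CPM in basal, suprabasal and follicle barcodes. Fibroblast barcodes held 3473 CPM of Ifitm3, and the part of free RNA was not tested. H2-K1, a class I heavy chain whose reads can be shared with other H2 genes, stood at 1359 CPM, 1.98-fold (1.84 to 2.13) above follicle barcodes. Of 15 counted against follicle barcodes, 5 were higher in members and 0 lower, with a median log2 ratio of 0.99. In that comparison 6.99% of all genes were higher.

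Stress, antioxidant and transporter lists had median log2 ratios of 0.22, 0.16 and 0.29 against the other epithelial barcodes together. There, 5.56% of all genes were higher and 5.35% lower. Against suprabasal barcodes alone, 3 of 24, 4 of 19 and 3 of 12 counted genes of these lists were higher, and 0, 2 and 0 lower. In that comparison 11.3% of all genes were higher and 3.98% lower. Of 24 immediate early and heat shock genes, 2 were higher in members and 0 lower than in other epithelial barcodes. These were Klf2 and Socs3, with log2 ratios of 1.32 and 1.40. Atf3, Fos and Jun, transcription factor genes of an early stress response, stood at 3089.8, 2349.7 and 2342 CPM in members. Of 20 counted antioxidant and metal-binding genes (of 21), 2 were higher and 2 lower. The metallothionein Mt2 was 2.67-fold (2.54 to 2.82) above suprabasal barcodes at 1192 CPM, while Mt4, the form of differentiating epithelium, was 23.9-fold (21.9 to 26.2) lower. Of 12 counted transporters (of 15), 2 were higher and 1 lower, the last being the glycerol channel Aqp3, at 19.9 CPM against 458 CPM in the follicle.

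**Figure D3:**
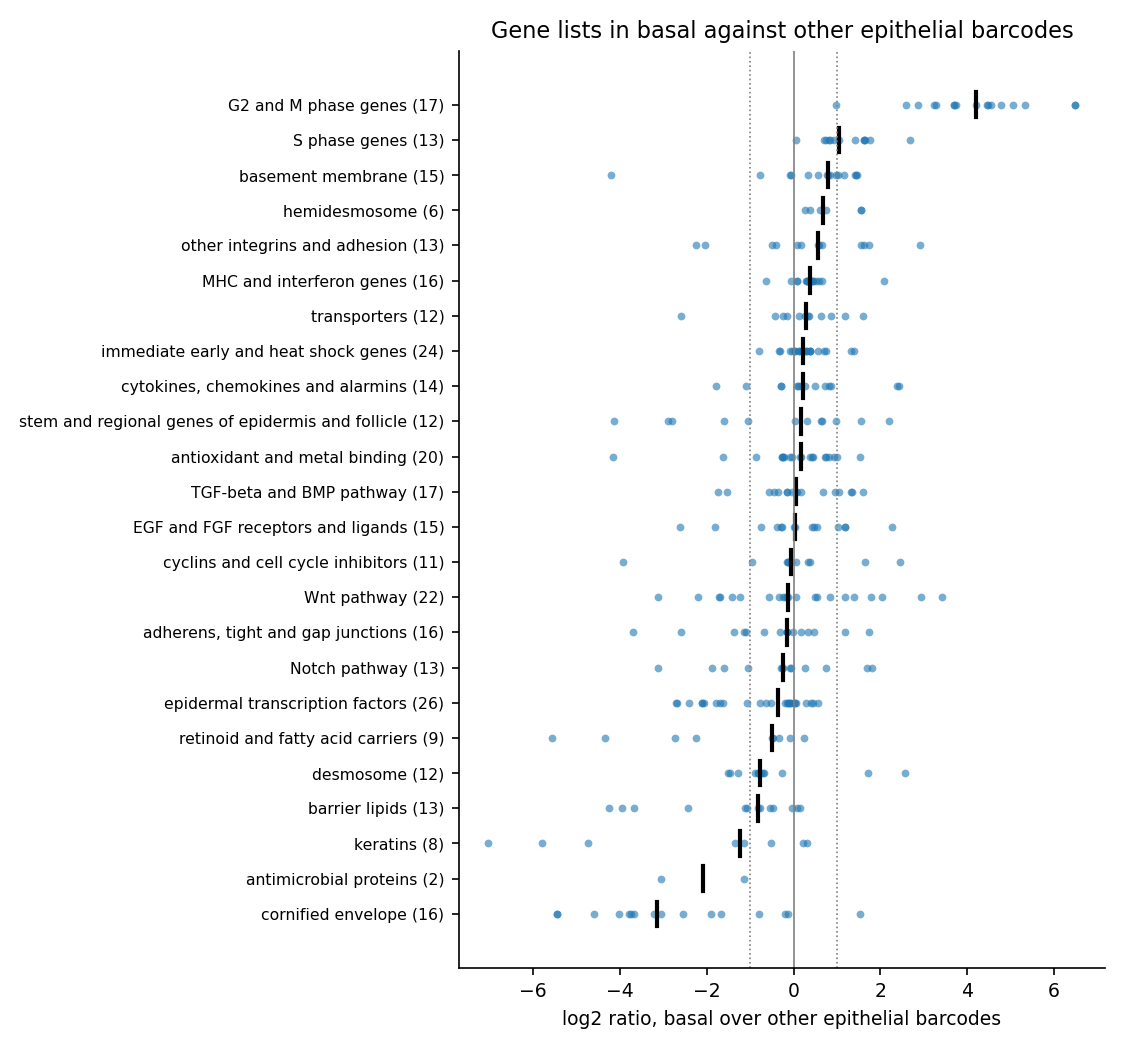
Log2 ratio of basal over other epithelial barcodes for every counted member of 24 gene lists (points, number in brackets), with the list median as a bar and dotted lines at 2-fold. G2 and M phase genes lie highest, with a median of 4.21, and cornified envelope genes lowest, with a median of -3.14.

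The 15 genes with the largest ratios over other epithelial barcodes, at 200 or more UMIs, were mainly genes of division, and 11 of the 15 were at least 10-fold higher in cycling members than in the rest. The other 4 were Slc4a8, Cysltr1, Il1r2 and Ptprz1. Slc4a8, a sodium-coupled bicarbonate exchanger, stood at 59.8 (54.5 to 65.4) CPM in members, had 7 UMIs in suprabasal barcodes and 0 in follicle barcodes, and was 42.5-fold (20.5 to 106) above the other epithelial barcodes. That ratio was 17.0-fold when basal keratin UMIs had to be at least 2 times those of differentiation, 69.8-fold with 0 Dcn UMIs and 64.4-fold with a keratin floor of 50 CP10K. Cysltr1, a receptor for cysteinyl leukotrienes, stood at 32.2 (28.3 to 36.4) CPM with 6 UMIs in suprabasal and 0 in follicle barcodes. Il1r2, the decoy receptor of interleukin 1, stood at 146 (138 to 155) CPM, 38.8-fold (23.0 to 71.3) above suprabasal and 10.9-fold (6.69 to 19.2) above follicle barcodes. Ptprz1, a receptor tyrosine phosphatase, stood at 39.4 CPM with 1 UMI in suprabasal barcodes. None of the 4 came from a handful of barcodes, since their 10 highest members held between 8.55% and 18.3% of the UMIs. Fibroblast barcodes held 1.00, 2.60 and 1.44 CPM of Slc4a8, Cysltr1 and Ptprz1 but 276 CPM of Il1r2.

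A second ranking without cycling barcodes, chosen after these values were seen, kept these 4 at the top and added 16 others, with ratios from 7.30 to 41.9. Antxr1, a collagen-binding receptor, stood at 191, 11.6 and 36.0 CPM in basal, suprabasal and follicle barcodes, and at 519.6 CPM in fibroblast barcodes. Smoc2, a matricellular protein gene, stood at 249, 7.80 and 106 CPM. The carbonyl reductase Cbr2 and the Notch-like gene Dlk2 stood at 91.5 and 29.8 CPM in members, with 4 and 1 UMIs in suprabasal barcodes. Slc6a4, the serotonin transporter, stood at 53.4 CPM in members and 4.03 CPM in suprabasal barcodes, and Wnt16 at 44.3 and 5.11 CPM. For 3 of the 20 genes the fibroblast barcodes held a higher level than the members.

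The 10 genes with the smallest ratios came from both comparison groups. Skint5, Krt78, 4833423E24Rik, Orm1, Tesc and Ly6g6c were high in suprabasal barcodes, from 66.1 CPM for Krt78 to 933 CPM for Ly6g6c. Skint5, of a family of near copies that can share reads, had 6 UMIs in members against 540 in suprabasal barcodes. Grem1, Pdzrn3, Pdzrn4 and Calml3 were high in the follicle, from 233 CPM for Grem1 to 512 CPM for Pdzrn3, and each was under 2 CPM in members.

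Levels were also followed along the keratin balance. The 712 members and 317 suprabasal barcodes were placed in 7 bins by the share of Krt1, Krt10 and Krtdap among the 5 keratin genes of the choice. The members fell into bins of 0 to 1% (419 barcodes), 1 to 5% (181), 5 to 20% (53) and 20 to 50% (59). The bins share 1 library, and their order is that of the choice, so the trends are a description.

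Within the members, 3 patterns were seen. Some genes were already low in the 20 to 50% bin. Lgr6 stood at 166, 195, 65.3 and 12.4 CPM over the 4 bins of members, and Il1r2 at 165, 158, 94.7 and 20.2 CPM. Cdh13, a cadherin without a cytoplasmic tail, went from 814 to 129 CPM. Other genes kept more of their level there. Col17a1 stood at 1067, 1028, 903 and 914 CPM in members, and at 661, 633 and 367 CPM in the suprabasal bins. Itgb4 stood at 205 CPM in the first bin, 77.7 CPM in the 20 to 50% bin and 22.8 CPM in the last. Lamb3 went from 173 to 88.6 and then to 4.25 CPM. In the 20 to 50% bin, Col17a1 was thus near its first level while Lgr6 and Il1r2 were several-fold lower.

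A further set was higher before the keratins had crossed. Zfp750 stood at 0.214, 10.96, 106 and 126 CPM in the 4 bins of members and 188 CPM in the first suprabasal bin. Hes1 stood at 53.4, 78.7, 348 and 472 CPM, close to its highest value of 517 CPM in the 50 to 80% bin. The receptor Notch3 went from 0.858 to 46.6 CPM in members, and Mt4 from 5.58 to 587 CPM. Krt78 had 0 UMIs in all 4 bins of members and stood at 2.86, 24.1 and 119 CPM in the suprabasal bins. Krt15 was highest in the 20 to 50% bin, at 10286 CPM, against 6889.7 CPM in the first bin and 4764 CPM in the last. Trp63 differed less than 2-fold between the ends of the range, from 644 to 393 CPM. Median depth per barcode was 10823 UMIs in the first bin and 12585.5 in the last, and its part in these levels was not tested.

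**Figure D4:**
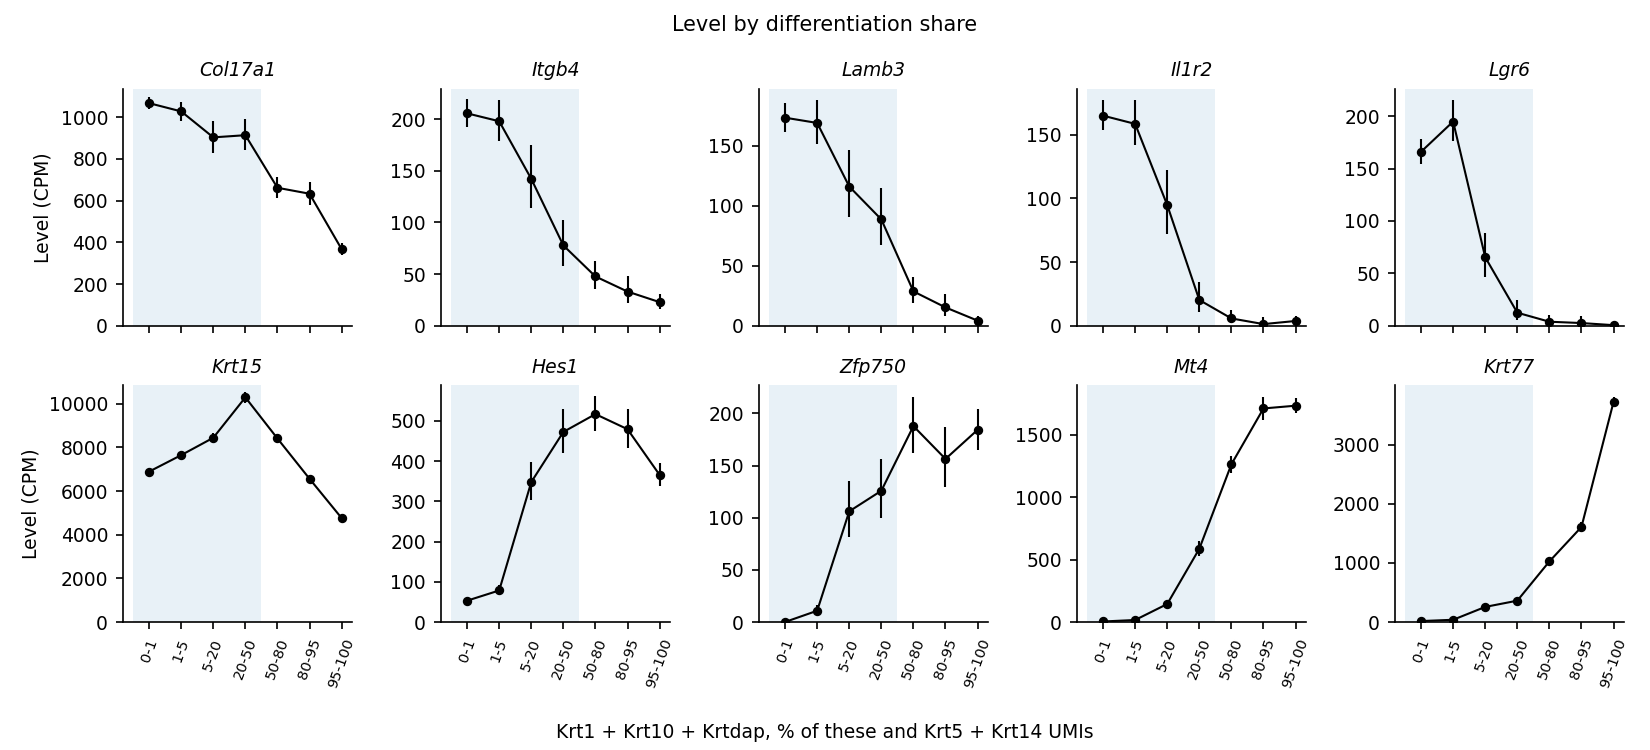
Level (CPM, with 95% Poisson intervals) of 10 genes in 7 bins of the share of Krt1, Krt10 and Krtdap among keratin UMIs (x axis, in percent), with the bins of members shaded. Lgr6 and Il1r2 are near 0 at the edge of the shaded part, while Hes1 and Zfp750 are already high there.

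Within the epithelial barcodes, dividing cells were found mainly among members, and the other cells of the library were not scored. A barcode was called cycling with at least 2 UMIs of Mki67 and Top2a together, genes of proliferating cells. This held for 46 of 712 members, or 6.46% (4.77 to 8.52), and for 6 of 485 other epithelial barcodes, or 1.24% (0.455 to 2.67). Cycling members were deeper, with a median of 17626.5 UMIs against 10719 in the other 666 members, and ribosomal genes took 18.1% of their UMIs against 26.1%. After every barcode was thinned to 2000 UMIs, leaving out 4 shallower members and 15 others, the shares were 4.24% (2.88 to 5.99) of 708 and 0.213% (0.00539 to 1.18) of 470. Thinned, 0 of 308 suprabasal barcodes were called, which allows a share of up to 0.974% at 3 counts and 1.19% by the Clopper-Pearson interval. Top2a stood at 107 CPM in members and 5.63 CPM in fibroblast barcodes. The intervals of members and of all other epithelial barcodes together did not overlap, with or without thinning. For lower follicle barcodes alone, 2 of 163 were called, or 1.23% (0.149 to 4.36). After thinning, 1 of 157 was called, or 0.637% (0.0161 to 3.498), and that interval overlapped the thinned interval of members. These intervals cover the count of barcodes in 1 library, and the groups were not tested against each other.

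Cycling members were most frequent at the undifferentiated end of the keratin balance. Of the 46, 37 were in the 0 to 1% bin, 8 in the 1 to 5% bin, 1 in the 5 to 20% bin and 0 in the 20 to 50% bin. These were 8.83%, 4.42%, 1.89% and 0% of the 419, 181, 53 and 59 barcodes there. The shares per bin are given without intervals and without thinning, and the last 2 rest on few barcodes. The suprabasal bins from 50 to 80%, 80 to 95% and 95 to 100% held 2, 1 and 0 cycling barcodes, or 2.15%, 1.52% and 0%. At least 3 UMIs of the S phase list were present in 40 of the 46. Of 9077 genes, 764 (8.42%) were at least 2-fold higher in cycling than in other members, among them 10 of 11 counted S phase genes and 15 of 15 G2 and M phase genes. The cycling call uses 2 genes of the last list. Ube2c, a ubiquitin-conjugating enzyme of mitosis, stood at 1246 CPM in cycling and 0.701 CPM in other members. Pcna, the replication clamp, was 2.34-fold (1.88 to 2.90) higher, and Uhrf1, which maintains DNA methylation at replication, 21.4-fold (13.1 to 36.0) higher.

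Over all members, 16 of 17 counted G2 and M phase genes (of 18) and 7 of 13 S phase genes (of 16) were higher than in other epithelial barcodes, and 0 were lower. Of 11 counted cyclins and cell cycle inhibitors (of 14), Ccnd1 and Ccnd2 were higher and Cdkn2b lower.

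Other genes were lower in the cycling members. The G1 cyclin genes Ccnd1 and Ccnd2 stood at 0.471 times (0.330 to 0.652) and 0.357 times (0.290 to 0.436) their level in other members. Both were well above suprabasal barcodes over all members, with Ccnd2 at 337 against 28.5 CPM. Krt10 stood at 0.216 times (0.168 to 0.275) and Mt4 at 0.0687 times (0.0187 to 0.177) the level of other members, while Krt14 was 1.48-fold (1.45 to 1.52) higher. Of the hemidesmosome genes, Dst stood at 0.583 times (0.514 to 0.659), Itga6 at 0.669 times (0.606 to 0.737) and Col17a1 at 0.758 times (0.698 to 0.822), but Itgb4 was 1.23-fold (1.04 to 1.44) higher. Depth, the share of ribosomal genes and the place on the keratin balance moved with the cycling call. Their part in these ratios was not tested. Of the 46 cycling members, 37 were in the 0 to 1% bin, where Mt4 stood at 5.58 CPM over all 419 barcodes. Mt4 stood at 5.05 CPM in cycling and 73.5 CPM in other members. Krt10 is a gene of the choice and helped to set the bins.

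When the cycling barcodes were left out of both groups, the count of genes higher in members than in other epithelial barcodes went from 566 to 408. Of the G2 and M phase list only 1 gene then had 50 UMIs, with a log2 ratio of -0.011. The list's median of 4.21 over all members thus rested on the 46 cycling barcodes. Ccnd1, Ccnd2, Il33, Lgr6 and Itga3 were as high without them, with ratios of 3.24-fold, 5.80-fold, 5.52-fold, 4.60-fold and 7.67-fold over other epithelial barcodes.

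The members were then divided by clustering on 2000 variable genes into 7 subclusters of 212, 163, 132, 95, 39, 36 and 35 barcodes. Genes that lead a subcluster took part in forming it, so their values describe it and test nothing.

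Subclusters 1 and 2 were the largest, and differed in immediate early genes. Atf3 stood at 4318 CPM in subcluster 1 and 1104 CPM in subcluster 2, Fos at 3446 and 1093 CPM, and Jun at 3044 and 1167 CPM. In subcluster 2, 17 of the 24 immediate early and heat shock genes were at least 2-fold lower than in the other members, with a median log2 ratio of -1.54, where 5.39% of 9086 genes were lower. Its median depth was 9340 UMIs against 11005.5 in subcluster 1, and the part of depth was not tested. Hemidesmosome and regional genes were close in the pair, with Lgr6 at 216 and 181 CPM and Il1r2 at 197 and 225 CPM.

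Subcluster 3 was led by Krt16, a keratin of activated epidermis, at 150.3 CPM against 18.1 CPM in the other members, although 5 barcodes held 62.1% of its UMIs there. Ier3, a stress-response gene, was broader, at 963 against 180.2 CPM, and Itgb6 stood at 109 CPM against 29.5 CPM in subcluster 1. Ptgs2, the inducible cyclooxygenase, stood at 116 against 22.8 CPM, and Epgn at 363 CPM. Muscle genes also led it, but 5 barcodes held 98.3% of its Acta1 UMIs, so they do not describe the subcluster.

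Subcluster 4 was the differentiating end. Zfp750 stood at 129 CPM against 4.38 CPM in other members, and Mt4 at 403 against 13.9 CPM. Of 9 counted cornified envelope genes, 7 were at least 2-fold higher there, where 1.66% of all genes were. Lgr6 stood at 31.6 CPM and Il1r2 at 26.0 CPM, both low, and 0 of its 95 barcodes were cycling. All 36 barcodes of subcluster 6 were cycling. The clustering thus left few of the 46 cycling members for any other subcluster, so the 0 in subcluster 4 is in part set by it.

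Subcluster 5, of 39 barcodes, went against the label of interfollicular cells. It expressed genes of the hair follicle that the choice did not use. Krt17 stood at 982 CPM, Fst at 543 CPM and Lgr5 at 151 CPM, against 46.8, 2.95 and 0.422 CPM in subcluster 1. The summed lower follicle markers reached 300.3 CPM, where the other 6 subclusters had 7.13 to 17.7 CPM and the lower follicle group 2398 CPM. Only 3 of the 39 barcodes had at least 3 of these markers. Postn, Lhx2 and Sox9 are among them. The choice limited these genes in members and defined the lower follicle group by them. The gap to that group and the low count of barcodes are thus in part set by the choice. The summed upper follicle markers, which include Krt79, limited by the choice, were 1400.4 CPM, against 63.3 to 220 CPM in the other subclusters and 1961 CPM in the lower follicle group. Krt17 is 1 of the 4 upper follicle markers, and Lgr5 is 1 of the 6 lower follicle markers. Both sums therefore count again a gene given above, and the UMIs of Lgr5 came from few members. In subcluster 5, 5 barcodes held 57.7% of the Fst UMIs and 38.1% of those of Sostdc1. The BMP and Wnt inhibitor Sostdc1 was at 888 CPM, above the 426 CPM of the lower follicle group. Genes high in other members were low here, with 0 UMIs of Il1r2, Ly6a at 73.2 CPM and Krt15 at 3149 CPM.

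Subcluster 7, of 35 barcodes, was led by Cd74 and other MHC class II genes, but 5 barcodes held 99.1% of its Cd74 UMIs. Its summed Langerhans cell markers were 2012 CPM, against 123 to 413 CPM in the other subclusters, and 3 of its barcodes had at least 3 of the 4 markers. Ptprc was 0 by the choice. Without subclusters 5 and 7, a check added after the data were seen, 638 members remained and 585 genes were higher and 569 lower than in other epithelial barcodes. At clustering resolutions of 0.3 and 1, giving 6 and 9 subclusters, the barcodes of subclusters 5, 6 and 7 each remained together, although subcluster 7 then lay in clusters of 51 and 55. The larger subclusters were less separate. At 0.3, 184 barcodes of subcluster 1 and 129 of subcluster 3 fell into 1 cluster of 315. At 1, the largest pieces kept together were 117 of 212 in subcluster 1, 87 of 163 in subcluster 2 and 93 of 132 in subcluster 3.

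**Figure D5:**
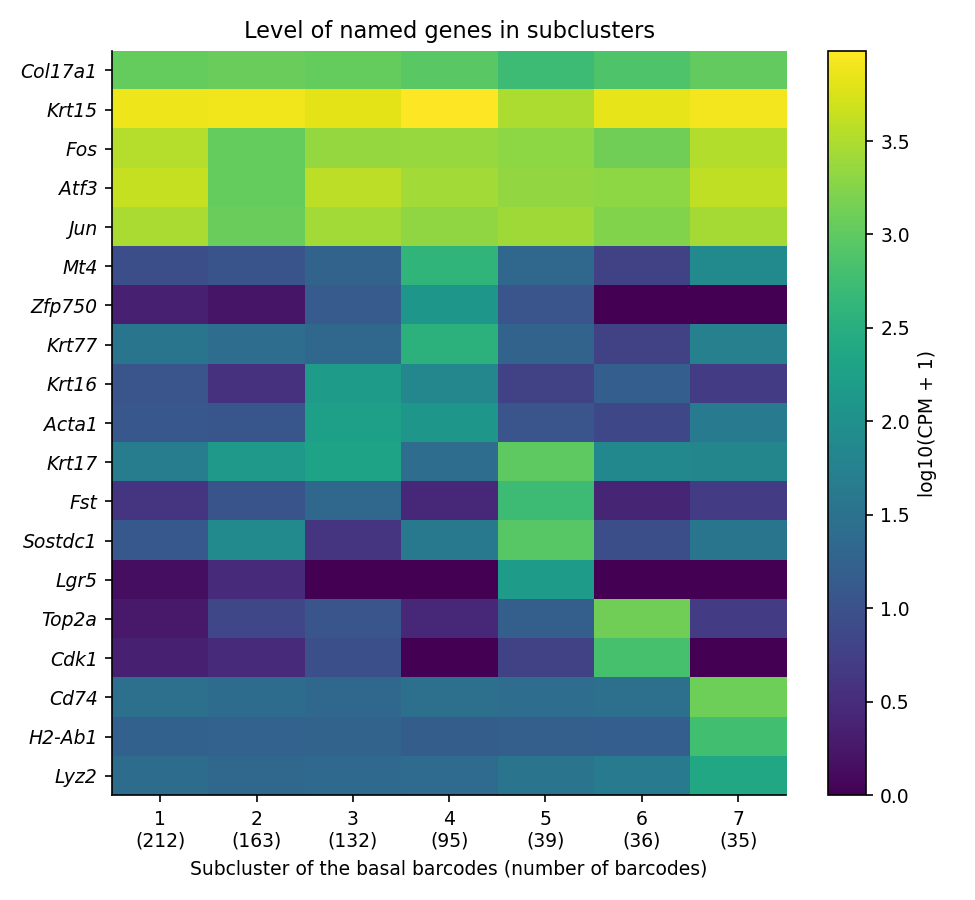
Level of 19 genes, as log10(CPM + 1) in colour, in the 7 subclusters of members (columns, number of barcodes in brackets). Col17a1 is high in every column, while Mt4 and Zfp750 peak in subcluster 4, Fst, Sostdc1 and Lgr5 in 5, Top2a and Cdk1 in 6 and Cd74 in 7.

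The genes shown most often lie as follows on mm10. Krt5 is on chromosome 15 at 101707070 to 101712898 and Krt14 on chromosome 11 at 100203162 to 100207548, both on the minus strand. Col17a1 is on chromosome 19 at 47646344 to 47692094 and Lgr6 on chromosome 1 at 134983301 to 135105276, both on the minus strand. Il1r2 is on chromosome 1 at 40074079 to 40125231, Itga6 on chromosome 2 at 71745616 to 71858416, Itgb4 on chromosome 11 at 115974709 to 116008412 and Slc4a8 on chromosome 15 at 100761747 to 100823968, all on the plus strand.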

How the data were processed

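The values used are the authors' deposited raw UMI counts of 32285 genes. Per the submitters' processing notes, Cell Ranger and the mm10 build were used, and no version is named. The cell calling and annotation are not given in the sources used here. The hashtag library was not analysed here.

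UMIs were summed per group of barcodes and scaled to CPM. A gene was counted in a comparison with at least 50 UMIs summed over both groups, and 3 UMIs were the floor for a group with 0. All 8367 barcodes of the 1 library were distinct. Scrublet, from Scanpy 1.11.5 and with 6% expected, called 305 doublets among 8127 barcodes. They were kept, and 2 were members. Thinning was to 2000 UMIs. Subclusters came from 2000 variable genes, 20 components, 15 neighbours and Leiden at 0.5 with igraph 0.11.9. Python 3.11.15 ran NumPy 2.4.6, SciPy 1.17.1, pandas 2.3.3 and matplotlib 3.10.9. The calculation of ratios was checked on simulated Poisson totals per group, with no spread between barcodes. That check cannot show how the intervals hold where a few barcodes carry a gene. Positions are from GENCODE and promoters from RefSeq, both GRCm38.

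Named genes were the 15 largest and 10 smallest ratios at 200 or more UMIs, the 3 highest and 3 most different members of each of 24 lists, genes of the choice, basal markers and hemidesmosome genes. For cycling members the rule took the 10 largest ratios, and for subclusters the 6 largest, at 100 or more UMIs. Only some of these are printed above. For subclusters, genes outside those 6 are also printed, such as Atf3, Fos and Jun in subclusters 1 and 2. Krt17, Lgr5 and Sostdc1 in subcluster 5 are others. Genes outside this rule, such as Klk10, Dll1 and Cdh13, were named after their values were seen. The values of 1 gene are not reported here. Members, lists and rules were chosen with earlier results of these data known.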

Additional observations from a re-analysis of the deposited data

How the results depend on the processing

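Alternative barcode limits gave 710 members (500 genes, or called doublets left out), 706 (10% mitochondrial), 676 (keratin floor of 50 CP10K) and 681 (basal keratins at least 2 times). Requiring 0 Dcn UMIs left 524. Leaving out subclusters 5 and 7, chosen after seeing the data, left 638. Genes higher in members were 996 at 10 or more UMIs and 299 at 200 or more, and 408 to 778 under the other alternatives. Genes lower were 1141 and 255, and 418 to 628 otherwise. The higher share of these calls was 50.9%, but 65.1% with the keratin floor of 50 CP10K and 43.2% without cycling barcodes. The cycling share was 4.24% after thinning and 6.11% to 7.05% otherwise. Lists with a median above that of all genes numbered 13, and 10 to 14 under the alternatives. Without cycling barcodes the median log2 ratio of G2 and M phase genes was -0.011 over 1 gene, and the log2 ratios of Nusap1 and Ccnb1 were -0.96 and -0.32. No other list median or named gene that was 2-fold apart changed sign. Smaller differences did in 5 lists, with medians of -0.14 to 0.16, and in 7 genes, with log2 ratios of -0.12 to 0.98. The Wnt median went from -0.14 to 0.18 with the keratin floor of 50 CP10K, and the TGF-beta and BMP median from 0.049 to -0.13 when every barcode weighed the same. H2-Ab1 went from 0.66 to -0.49 with that floor. In some alternative 49 of the 160 named genes moved by over 1.5 times. Of 160 named genes, 107 of 159 stayed near their ratio with the keratin floor of 50 CP10K and 110 when every barcode weighed the same. No paired analysis was possible because 1 pooled library has no replicates. Depth limits genes with few UMIs, and intervals do not hold where a few barcodes carry a gene.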
